A study of Mus musculus with 8 samples.

Results

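Glutamine synthetase (Glul) and 8 further genes of glutamine and glutamate handling were chosen by name for this account: the pericentral partners Oat, Slc1a2 and Rhbg, glutamate dehydrogenase (Glud1), the transporters Slc38a3 and Slc38a4, and the aminotransferases Got1 and Gpt2. Of these 9 named genes, 8 had a row among the 19055 gene symbols of the table, and all 8 passed the filter on low values, which left 13704 genes. Oat was not analysed here. No glutaminase was among the named genes, so Gls2 was taken up beside them.

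The samples were 5 livers of genotype URI(+/D)Hep and 3 livers of wild-type littermates, genotype URI(+/+)Hep (controls 1 to 3), each giving 1 library. In the URI(+/D)Hep mice a tamoxifen-inducible Cre (creERT2) under serum albumin sequences was used to delete URI in hepatocytes. The notation sets a + allele beside a D allele, which reads as deletion of 1 allele with the other kept. All mice were aged 8 to 9 weeks, were treated with tamoxifen for 1 week and were killed 48 hours after removal of most of the liver (partial hepatectomy), per the labels. RNA was total RNA of the tissue, and reads came from the 3′ ends of polyadenylated transcripts.

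Glutamine synthetase joins ammonia to glutamate. In the liver it is made in a narrow layer of hepatocytes around the central vein, where it takes up the ammonia that the urea cycle upstream has left. Hepatocytes around the portal vein do the reverse: glutaminase releases ammonia from glutamine for urea synthesis. Expression of Glul and of its pericentral neighbours depends on Wnt and beta-catenin signalling, and TCF/LEF proteins are the DNA-binding partners of beta-catenin. Aminotransferases such as those encoded by Got1 and Gpt2 move amino groups between glutamate and other amino acids.

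Within the libraries, Glul varied together with Slc1a2 and Rhbg and in the opposite direction to Got1 and Gpt2. Between the genotypes 0 of the 8 genes passed the test over all genes. The promoter windows of Glul and Slc1a2, which varied together, and of Got1 and Gpt2, which varied against them, are shown here. They run from 250 bases before to 50 bases after a start listed by RefSeq (GRCm38.p6, another build than the GRCm39 named by the submitters' processing notes). Capitals mark matches, on either strand, to the TCF/LEF core CTTTGA, to the ATF4-CEBP composite TGATGNAA or to the TATA box TATAAA, which do not overlap each other here. The windows lie at chr1:153899679-153899978 on the plus strand for Glul, chr2:102706188-102706487 on the plus strand for Slc1a2, chr19:43524556-43524855 on the minus strand for Got1 and chr8:85492326-85492625 on the plus strand for Gpt2. All are written 5′ to 3′ on the strand of the gene.
Glul: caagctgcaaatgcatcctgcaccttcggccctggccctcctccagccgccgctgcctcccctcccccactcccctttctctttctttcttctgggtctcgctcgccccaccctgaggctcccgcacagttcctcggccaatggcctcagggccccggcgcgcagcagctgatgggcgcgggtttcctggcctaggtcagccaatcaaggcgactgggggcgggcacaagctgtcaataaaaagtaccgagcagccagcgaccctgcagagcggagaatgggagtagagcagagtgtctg
Slc1a2: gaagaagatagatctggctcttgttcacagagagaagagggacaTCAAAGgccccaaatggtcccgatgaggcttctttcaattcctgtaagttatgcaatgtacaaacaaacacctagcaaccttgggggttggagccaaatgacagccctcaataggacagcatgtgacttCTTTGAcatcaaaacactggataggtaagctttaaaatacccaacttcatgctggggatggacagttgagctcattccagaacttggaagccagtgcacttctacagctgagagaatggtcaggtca
Got1: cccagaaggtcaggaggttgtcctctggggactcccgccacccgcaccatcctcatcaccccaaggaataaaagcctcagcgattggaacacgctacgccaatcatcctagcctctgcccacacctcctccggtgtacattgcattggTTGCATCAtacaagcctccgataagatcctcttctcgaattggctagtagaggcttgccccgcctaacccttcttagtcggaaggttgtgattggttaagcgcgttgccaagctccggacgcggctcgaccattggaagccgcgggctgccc
Gpt2: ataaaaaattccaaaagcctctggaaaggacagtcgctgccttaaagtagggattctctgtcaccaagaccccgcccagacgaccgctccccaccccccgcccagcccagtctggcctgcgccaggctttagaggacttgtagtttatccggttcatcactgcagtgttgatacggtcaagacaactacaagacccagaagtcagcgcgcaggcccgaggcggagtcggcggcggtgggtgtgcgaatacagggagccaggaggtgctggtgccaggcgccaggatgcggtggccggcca

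The Slc1a2 window held CTTTGA at 77 bases and its complement TCAAAG at 206 bases before the start site, while 16.0% of the 32851 windows of all genes held at least 1 such match. The Got1 window held 1 match to the ATF4-CEBP composite, TTGCATCA, which begins 102 bases before the start site, against 3.97% of all windows. TATAAA, present in 13.6% of all windows, was in none of these 4, and neither Glul nor Gpt2 had a match to any of the 3 motifs. Such matches are letters in a window and show no binding, and the Slc1a2 window starts inside the annotated gene, at 1 of its possible starts. RefSeq windows were at hand for 6 of the 8 genes, not for Rhbg and Slc38a3.

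Depth ranged from 4294494 to 4800694 reads in the URI(+/D)Hep libraries and from 3838674 to 4337966 reads in the URI(+/+)Hep libraries. Levels are normalized reads, that is, reads after the size-factor scaling of the authors, and 1 read was worth 0.884 to 1.20 of them. Uri1 itself averaged 384 ± 42.7 normalized reads in URI(+/D)Hep livers and 384 ± 79.3 in URI(+/+)Hep livers (SD, n = 5 and 3), so the groups are called by their labels, and a 3′ tag outside the deleted part may not show the deletion. Xist, made from the inactive X chromosome, had 1217 to 2357 normalized reads in the URI(+/D)Hep libraries, against 9.59, 2.95 and 1298 in controls 1, 2 and 3. The sum over 4 Y-linked genes was 3.54 in URI(+/D)Hep 1 and 786 to 1002 in the other 4 URI(+/D)Hep libraries, against 569 to 1558 in the controls. Xist and Y-linked reads thus occurred together in URI(+/D)Hep 2 to 5 and in control 3. Nothing in the labels says whether males and females were mixed in a library. Xist was low only in controls 1 and 2, so genotype and sex make-up cannot be fully told apart in the comparisons below. The labels call the cell type epithelial, and 9 of 9 hepatocyte markers in the table had reads in every library, as did 10 of 10 endothelial and 10 of 10 Kupffer cell and macrophage markers, so the libraries hold other liver cells too. In such bulk tissue fewer cells of a type and less RNA per cell cannot be told apart.

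Glul stood at 2529, 1770.4, 1358, 2093 and 1668 normalized reads in URI(+/D)Hep livers 1 to 5, against 495, 1283 and 2130 in URI(+/+)Hep livers 1 to 3. Control 1 was the lowest library and URI(+/D)Hep 1 the highest, and 4 of the 5 URI(+/D)Hep livers lay within the range of the controls. Neighbours in this order could belong to either genotype: control 3 stood between URI(+/D)Hep 1 and 4, while controls 2 and 1 came last. The means were 1884 ± 446 and 1303 ± 817 (SD, n = 5 and 3). The log2 fold change of URI(+/D)Hep over URI(+/+)Hep on the log2(value + 1) scale was 0.74 (SE 0.41, 95% interval -0.18 to 1.65), with a limma p of 0.378 after Benjamini-Hochberg adjustment over all genes tested. The two-sided exact permutation test over the 56 splits into 5 and 3 libraries gave p = 0.179, where the smallest possible p is 0.0179. In fold terms the interval spans 0.880 to 3.15. Leaving out control 1 gave a log2 fold change of 0.16, and leaving out control 3 gave 1.21. A fit that included the share of Y-linked reads gave 0.23.

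**Figure D1:**
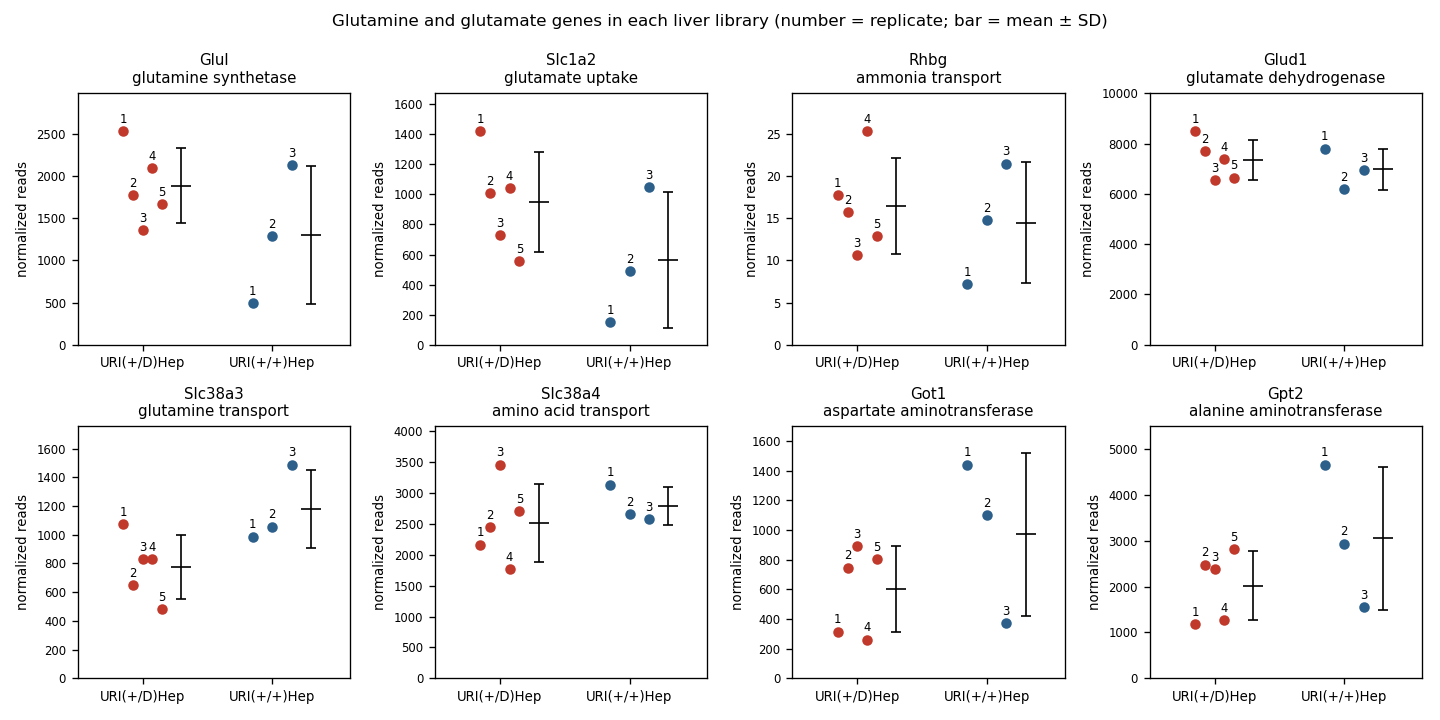
Normalized reads (y axis, from 0) of the 8 genes in each library, with URI(+/D)Hep livers in red and URI(+/+)Hep livers in blue, replicate numbers beside the points and bars for mean ± SD. The 2 groups overlap for every gene, and URI(+/+)Hep 1 is lowest for Glul, Slc1a2 and Rhbg and highest for Got1 and Gpt2.

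Slc1a2 encodes a high-affinity glutamate carrier (GLT-1) that brings glutamate into pericentral hepatocytes. It stood at 1420.5, 1006, 728, 1039.8 and 556 normalized reads in URI(+/D)Hep livers 1 to 5, against 150, 490.4 and 1047 in URI(+/+)Hep livers 1 to 3. The lowest and highest libraries were the same as for Glul, and again 4 of 5 URI(+/D)Hep livers lay within the range of the controls. Between the genotypes the log2 fold change was 1.08 (SE 0.55, 95% interval -0.16 to 2.32, limma adjusted p = 0.338, exact permutation p = 0.161). Leaving out control 1 gave 0.33, leaving out control 3 gave 1.73, and including the Y-linked share gave 0.40.

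Rhbg encodes an ammonia transporter of the Rhesus family, found in the basolateral membrane of pericentral hepatocytes. It was counted with 6 to 27 reads per library, so each value carries a large counting error. It stood at 17.7, 15.7, 10.6, 25.3 and 12.9 normalized reads in URI(+/D)Hep livers 1 to 5, against 7.20, 14.8 and 21.5 in URI(+/+)Hep livers 1 to 3. The groups overlapped for 4 of 5 URI(+/D)Hep livers, and control 1 was again the lowest library. Its log2 fold change was 0.23 (SE 0.40, 95% interval -0.66 to 1.13, limma adjusted p = 0.796, exact permutation p = 0.571), and it was -0.17 without control 1.

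Glud1, the mitochondrial enzyme that interconverts glutamate with 2-oxoglutarate and ammonia, was the steadiest of the 8 genes across libraries. It stood at 8494, 7701, 6558, 7385 and 6652 normalized reads in URI(+/D)Hep livers 1 to 5, against 7795, 6177 and 6951 in URI(+/+)Hep livers 1 to 3. Its highest library was 1.38-fold its lowest, against 5.11-fold for Glul and 9.48-fold for Slc1a2. For Glud1 the log2 fold change was 0.08 (SE 0.13, 95% interval -0.22 to 0.37, limma adjusted p = 0.796, exact permutation p = 0.518), which bounds a group difference to between 0.860- and 1.29-fold.

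Slc38a3 encodes a sodium-coupled carrier of system N (SNAT3) that moves glutamine across the hepatocyte membrane. It stood at 1074, 650.0, 830.2, 831 and 481 normalized reads in URI(+/D)Hep livers 1 to 5, against 987, 1056 and 1487 in URI(+/+)Hep livers 1 to 3. All but URI(+/D)Hep 1 lay below every control, so the groups overlapped by 1 library. The means were 773 ± 222 and 1176 ± 271 (SD, n = 5 and 3), and the log2 fold change was -0.63 (SE 0.25, 95% interval -1.20 to -0.07). Of the 8 genes it had the smallest unadjusted limma p, 0.0317, and its adjusted p was 0.239 (exact permutation p = 0.0893). An unadjusted limma p under 0.05 was reached by 17.7% of all genes tested. The log2 fold change lay between -0.91 and -0.45 over 22 alternative settings, none of which called it.

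Slc38a4 encodes a system A carrier (SNAT4) of small neutral amino acids in hepatocytes. It stood at 2165, 2452, 3457, 1770.4 and 2704 normalized reads in URI(+/D)Hep livers 1 to 5, against 3137, 2656 and 2580.1 in URI(+/+)Hep livers 1 to 3. URI(+/D)Hep livers lay on both sides of the controls, with 1 above and 3 below their range. Its log2 fold change was -0.18 (SE 0.20, 95% interval -0.63 to 0.26, limma adjusted p = 0.668, exact permutation p = 0.464).

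Got1, the cytosolic aspartate aminotransferase, stood at 314, 745, 889, 261 and 803 normalized reads in URI(+/D)Hep livers 1 to 5, against 1439, 1099.8 and 370.1 in URI(+/+)Hep livers 1 to 3. The 3 lowest libraries, URI(+/D)Hep 4, URI(+/D)Hep 1 and control 3, were the 3 highest for Glul. For Got1 the log2 fold change was -0.65 (SE 0.54, 95% interval -1.87 to 0.58, limma adjusted p = 0.568, exact permutation p = 0.393). Leaving out control 1 gave -0.25, leaving out control 3 gave -1.23, and including the Y-linked share gave 0.03.

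Gpt2, the mitochondrial alanine aminotransferase, stood at 1175, 2480.5, 2376, 1262 and 2817 normalized reads in URI(+/D)Hep livers 1 to 5, against 4654, 2937 and 1555 in URI(+/+)Hep livers 1 to 3. Controls 1 and 2 were the highest libraries, while control 3 lay among the lowest. For Gpt2 the log2 fold change was -0.55 (SE 0.40, 95% interval -1.45 to 0.36, limma adjusted p = 0.510, exact permutation p = 0.304), and it was -0.17 without control 1 and -0.96 without control 3.

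In all, limma called 0 of the 8 genes, against 2 of 13704 genes over the table (0.0146%), and edgeR on recovered reads called 0 of the 8, against 0.0219% of all genes. DESeq2 gave an adjusted p to 7 of the 8, all but Rhbg, and called 0 of these, against 6.67% of the genes it adjusted. At an unadjusted limma p under 0.05 the count was 1 of 8, Slc38a3, against 17.7% of all genes tested. The groups overlapped for all 8 genes, whereas the ranges did not overlap for 13.4% of all genes tested. Fold changes were positive for 4 and negative for 4, with a median of -0.05, and the median over all genes tested was -0.002.

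**Figure D2:**
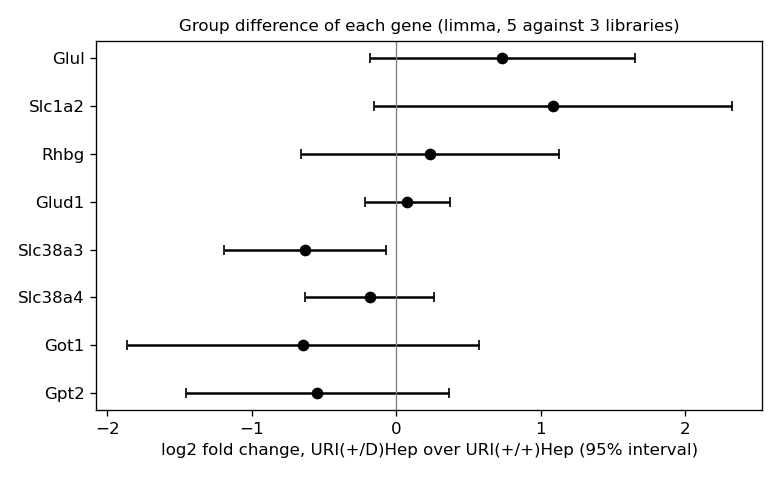
Log2 fold change of each gene, URI(+/D)Hep over URI(+/+)Hep, with its 95% interval from limma (5 against 3 libraries). The interval of Slc38a3 runs from -1.20 to -0.07 without the adjustment for multiple tests, and the other 7 intervals include 0.

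Across the 8 libraries Slc1a2 followed Glul closely, with Pearson r = 0.97 (exact permutation p = 0.00067) and Spearman rho = 0.98 (exact permutation p = 0.000397). For Rhbg, r was 0.86 (p = 0.00456) and rho 0.83 (p = 0.0154) by the same exact permutation tests. Got1 and Gpt2 ran the other way, with r = -0.82 and -0.88 (exact permutation p = 0.00223 and 0.00067) and rho = -0.93 and -0.90 (p = 0.00223 and 0.00456). Glul was related to each of the other 7 genes, and adjusted over these 7 relations the Pearson permutation p-values were 0.00234 for Slc1a2, 0.00799 for Rhbg, 0.00521 for Got1 and 0.00234 for Gpt2. The Spearman p-values adjusted the same way were 0.00278, 0.0269, 0.00781 and 0.0106 in that order of genes. Slc38a4 had r = -0.64 and rho = -0.76 (exact permutation p = 0.102 and 0.0368, adjusted 0.143 and 0.0515), and Slc38a3 and Glud1 had r of 0.00 and 0.08 and rho of 0.33 and 0.40 (adjusted permutation p from 0.381 to 0.992).

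The relations were also computed without the libraries at the 2 ends of Glul. Leaving out URI(+/D)Hep 1 and control 1, the 2 libraries whose Glul lay farthest from the median, r over the other 6 was 0.81 for Slc1a2, 0.82 for Rhbg, -0.90 for Got1 and -0.81 for Gpt2. All 4 adjusted permutation p-values were then 0.132, so the calls were lost with those 2 libraries out, while r kept its sign and was at least 0.806 in size for each of the 4. The unadjusted permutation p for Got1 was 0.0222. Without control 1 alone the calls held for Slc1a2 (r = 0.88, adjusted permutation p = 0.0285), Got1 (r = -0.91, 0.0285) and Gpt2 (r = -0.875, 0.0285), and Rhbg had r = 0.71 with an adjusted permutation p of 0.091. In the same 7 libraries Glud1 had r = 0.85 with Glul (adjusted permutation p = 0.0285), against 0.08 over all 8. Without URI(+/D)Hep 1, Got1 had r = -0.78 and an adjusted permutation p of 0.0528.

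The relations also held when values centred within each genotype were pooled, with control 1 kept in. With each gene centred on its group mean and libraries permuted only within their group, r with Glul was 0.96 for Slc1a2, 0.90 for Rhbg, -0.79 for Got1 and -0.85 for Gpt2 (adjusted permutation p = 0.0356, 0.0356, 0.0486 and 0.0365). Slc38a4 had r = -0.58 there with an adjusted permutation p of 0.0356. A correlation within each genotype alone would rest on 5 and 3 libraries and is not given.

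**Figure D3:**
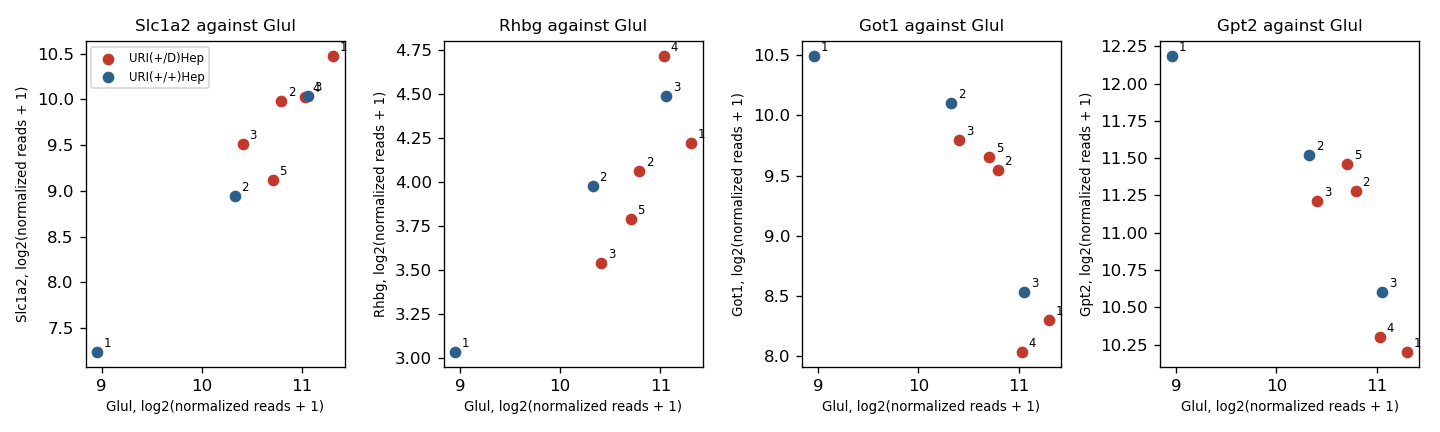
Slc1a2, Rhbg, Got1 and Gpt2 (y axes) against Glul (x axis), all as log2(normalized reads + 1), with 1 point per library, URI(+/D)Hep in red and URI(+/+)Hep in blue, and replicate numbers beside the points. Slc1a2 and Rhbg climb with Glul (r = 0.97 and 0.86) and Got1 and Gpt2 descend (r = -0.82 and -0.88), with control 1 at the low end of Glul.

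The ratio of Got1 to Glul within a library, a measure added after the values were seen, ran from 0.124 to 0.655 in URI(+/D)Hep livers and from 0.174 to 2.91 in URI(+/+)Hep livers. For Gpt2 to Glul it ran from 0.465 to 1.75 in URI(+/D)Hep livers and from 0.730 to 9.40 in URI(+/+)Hep livers. The ratio of Slc1a2 to Glul was narrower, between 0.333 and 0.569 in URI(+/D)Hep livers and between 0.303 and 0.492 in URI(+/+)Hep livers. For each ratio the ranges of the genotypes overlapped. Got1 and Gpt2 also varied with each other, with r = 0.97 over the 8 libraries, given as a description.

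Other genes of the pericentral zone varied with Glul in the same way. Of 28 pericentral genes outside the 8, 27 had a positive r with Glul over the 8 libraries, with a median r of 0.84, against 48.8% positive and a median of -0.03 over the 13703 other genes tested. Without control 1 the count was 26 of 28 and the median 0.69, against 52.5% and 0.05 over all genes. Axin2, a feedback inhibitor of Wnt signalling, had r = 0.96, Tbx3, a transcription factor, 0.95, Rnf43, a ubiquitin ligase that removes Wnt receptors, 0.92, and Lgr5, a receptor for R-spondins, 0.91, which were named after their values were seen. Other genes of the list had lower r, such as Notum at 0.62, Sp5 at 0.73, Nkd1 at 0.73 and Lhpp at 0.21. Avpr1a, the 1 gene with a negative r, had -0.59. These are correlations across the same 8 libraries, which share sequencing depth and scaling. Between the genotypes 0 of the 28 were called, 24 had a positive log2 fold change, and the median was 0.35, against 49.8% positive over all genes. Control 1 stood apart in these genes: their mean log2 deviation was -1.21 there, against -0.175 and 0.604 in controls 2 and 3. Summed, the 28 genes overlapped between the groups, at 14450 to 29734 in URI(+/D)Hep livers and 10610 to 30514 in URI(+/+)Hep livers. Their fold changes without control 1 are not given. The 4 with the smallest p were Aldh3a2, a fatty aldehyde dehydrogenase, at 761 ± 161 and 449 ± 125, Rnf43 at 308 ± 88.1 and 164 ± 84.8, Sp5 at 11.1 ± 2.0 and 5.74 ± 1.53, and Axin2 at 27.8 ± 5.17 and 13.0 ± 11.8 normalized reads in URI(+/D)Hep and URI(+/+)Hep livers (SD, n = 5 and 3, limma adjusted p from 0.142 to 0.228). DESeq2 called Aldh3a2 higher, alone among the 28, against 6.67% called of all the genes it adjusted.

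**Figure D4:**
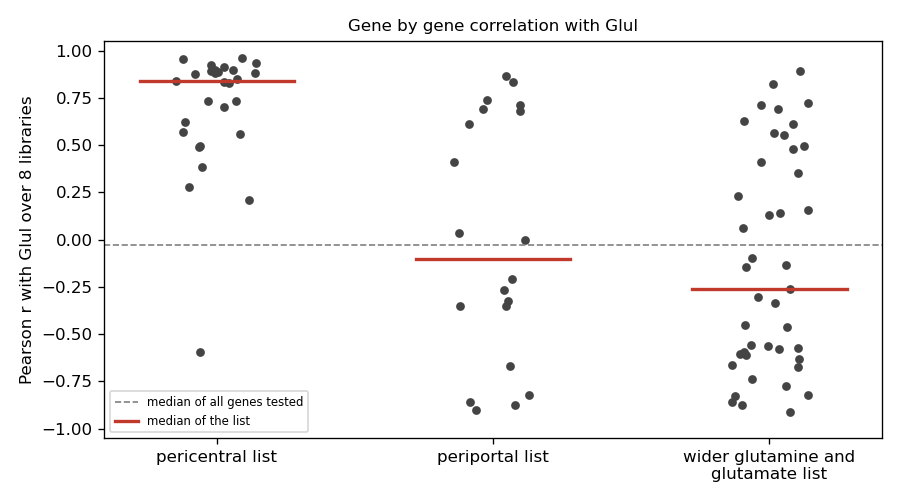
Pearson r with Glul over 8 libraries (y axis) for each gene of 3 lists, with 1 point per gene, red lines for list medians and a dashed line for the median of all genes tested. The 28 pericentral genes have a median r of 0.84, the 20 periportal genes one of -0.105 and the 43 genes of the wider glutamine and glutamate list one of -0.26.

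Of 20 periportal genes, 9 had a positive r with Glul, with a median of -0.105. Between the genotypes 0 were called by limma, with 12 positive fold changes and a median of 0.07. Cps1, which makes carbamoyl phosphate from ammonia in the first step of the urea cycle, stood at 2709, 3682, 3483, 2799.9 and 3198 normalized reads in URI(+/D)Hep livers 1 to 5, against 1077, 1802 and 1879.6 in URI(+/+)Hep livers 1 to 3. Every URI(+/D)Hep liver lay above every control, while the ranges did not overlap for 13.4% of all genes tested, in either direction. The log2 fold change of Cps1 was 1.03 (SE 0.20), with an adjusted p of 0.108 in limma (exact permutation p = 0.0179, the smallest possible). DESeq2 gave Cps1 an adjusted p of 0.000483. The next 3 by p were G6pc, glucose-6-phosphatase, at 187 ± 43.1 and 88.9 ± 22.0, Etnppl, which breaks down phosphoethanolamine, at 249 ± 123 and 70.1 ± 26.9, and Hsd17b13, a lipid droplet protein, at 1474 ± 254 and 2170.0 ± 164 in URI(+/D)Hep and URI(+/+)Hep livers (SD, n = 5 and 3, limma adjusted p from 0.115 to 0.127). DESeq2 called Cps1, G6pc, Etnppl and Hal higher and Hsd17b13 and Apof lower, against 6.67% called of all the genes it adjusted.

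Gls2, the liver glutaminase, releases ammonia and glutamate from glutamine. It stood at 582, 539, 607, 466 and 445 normalized reads in URI(+/D)Hep livers 1 to 5, against 414, 438 and 428 in URI(+/+)Hep livers 1 to 3. Every URI(+/D)Hep liver lay above every control, a separation of the groups that 13.4% of all genes tested showed in 1 direction or the other, and the log2 fold change was 0.30 (SE 0.12), with an adjusted p of 0.258 in limma (exact permutation p = 0.0357).

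Of 54 further glutamine and glutamate genes on the wider list, 48 had a row and 43 were tested. Limma called 0 of them, 16 had a positive and 27 a negative log2 fold change, and the median was -0.10. The 4 with the smallest p were Psat1, Cps1, Slc7a5 and Slc38a10. Psat1, which uses glutamate to make phosphoserine, stood at 43.3, 51.9, 58.0, 54.3 and 38.6 normalized reads in URI(+/D)Hep livers 1 to 5, against 207, 145 and 133 in URI(+/+)Hep livers 1 to 3. Slc7a5, the light chain of a carrier that exchanges glutamine for large neutral amino acids, stood at 66.6 ± 8.04 in URI(+/D)Hep livers and 120.1 ± 19.3 in URI(+/+)Hep livers (SD, n = 5 and 3, log2 fold change -0.84, SE 0.16, limma adjusted p = 0.109). Slc38a10, a relative of the SNAT carriers, stood at 395 ± 54.6 in URI(+/D)Hep livers and 589 ± 35.2 in URI(+/+)Hep livers (SD, n = 5 and 3, log2 fold change -0.58, SE 0.13, limma adjusted p = 0.115). All 5 URI(+/D)Hep livers lay below all 3 controls for these 3 genes, which were picked for their small p. Over all genes tested, the ranges did not overlap for 13.4% in either direction. DESeq2 called all 3 lower, against 6.67% of the genes it adjusted. By edgeR Psat1 was called lower (adjusted p = 0.0453), against 0.0219% of all genes called.

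The genes most like Glul were sought among the 9629 genes whose mean reached 50 normalized reads. The highest r with Glul over the 8 libraries was that of S1pr1, a sphingosine-1-phosphate receptor, at 0.99, followed by B3galnt2 at 0.99, Galm at 0.99, Slc22a27 at 0.98 and Cyp4f14 at 0.98. S1pr1 ran from 229 to 352 normalized reads in URI(+/D)Hep livers and from 121 to 318 in URI(+/+)Hep livers. The lowest r were those of Dusp16 at -0.99, Gtf2a2 at -0.99, Klf6 at -0.99, Rhbdf2 at -0.98 and Trmt61b at -0.98. Control 1 was the lowest library for each of the first 5 genes and the highest for each of the last 5. Among these 9629 genes Slc1a2 ranked 25th from the highest r, Got1 was at place 8980 and Gpt2 at place 9312.

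Other measures ran with or against Glul, wholly or in part, across the libraries. The sum over the 4 Y-linked genes was 3.54, 786, 1002, 798 and 859 normalized reads in URI(+/D)Hep livers 1 to 5, against 1558, 1312 and 569 in URI(+/+)Hep livers 1 to 3. It was highest in controls 1 and 2, the libraries lowest in Glul, and lowest in URI(+/D)Hep 1, the library highest in Glul, so that its order was nearly the reverse of that of Glul. The 8 neutrophil markers summed to 299, 469, 869, 386 and 749 in URI(+/D)Hep livers 1 to 5, against 1083, 1052 and 539 in URI(+/+)Hep livers 1 to 3, also nearly the reverse, and Ly6g was at 0 in 1 library. The log2 fold change was negative for all 6 neutrophil markers tested, with a median of -0.80, and 0 were called. Mki67, made by cells in cycle, had 469, 333, 268, 586 and 49.5 normalized reads in URI(+/D)Hep livers 1 to 5, against 24.0, 282 and 468 in URI(+/+)Hep livers 1 to 3. The 20 G2 and mitosis genes, all with reads in every library, summed to between 922 and 8679 in URI(+/D)Hep livers and to between 610 and 9493 in URI(+/+)Hep livers, with control 1 lowest in its group and URI(+/D)Hep 5 in its own. The 9 hepatocyte markers summed to 56375 to 66393 in URI(+/D)Hep livers and to 58053 to 98878 in URI(+/+)Hep livers, control 1 being the highest. The 10 endothelial markers summed to 3930.3 to 4149 in URI(+/D)Hep livers and 3039 to 3632 in URI(+/+)Hep livers. The 8 lymphocyte markers summed to 86.1 to 138 in URI(+/D)Hep livers and 15.6 to 76.2 in URI(+/+)Hep livers, and Cd3e, Cd8a and Nkg7 were at 0 in some libraries. The 6 markers of central vein endothelium, which include Wnt2, Wnt9b and Rspo3, did not follow the order of Glul: they summed to 602 to 981 in URI(+/D)Hep livers and 557 to 829 in URI(+/+)Hep livers, with control 1 the highest control and control 3 and URI(+/D)Hep 4, both high in Glul, the 2 lowest libraries. The part of these measures in the levels of Glul and its partners was not tested. The fold change of Glul without both control 1 and URI(+/D)Hep 5, the libraries lowest in mitosis genes, was 0.19 on the log2 scale.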

How the data were processed

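Livers of 5 URI(+/D)Hep and 3 URI(+/+)Hep mice were profiled by 3′ RNA sequencing with a 6 nt molecular identifier, as the labels describe. Tools and build named in the submitters' processing notes are bcl2fastq, featureCounts, DESeq2 and GRCm39. The aligner, the annotation and the use of the identifiers are not stated in those sources, so a value may count reads or molecules. The table deposited by the authors holds normalized signal, counts scaled by size factors. In units of the smallest nonzero value of each library, 100% of values were whole within 1e-06.

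A gene was tested where 3 or more libraries reached 10. Tests ran on log2(value + 1) in limma 3.58.1 under R 4.3.3 (mean-variance trend, Benjamini-Hochberg, threshold 0.05). Fold changes are on that scale, which understates low genes. Alternatives included edgeR 4.0.16 and DESeq2 1.42.0 on recovered reads, also without URI(+/D)Hep 5, whose smallest value was close to 1. Single genes and correlations were tested by exact permutation. The limma step was tested on simulated data.

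The genes and lists were chosen with earlier results of these data known. The genes named are the 8 with a row, Gls2, the 4 smallest p per list where none was called, and the 5 highest and 5 lowest r with Glul; others are said to be chosen after their values were seen. A gene that the rule names is not reported here. Nothing says that replicates came from separate litters or runs, so p-values measure the spread between these livers. Counting precision is 3 reads, or 2.65 to 3.60 normalized reads. Same-numbered livers did not vary together.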

Additional observations from a re-analysis of the deposited data

Results flagged for a closer look

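Ggt1, gamma-glutamyltransferase, which splits glutathione and releases glutamate, was at 248 normalized reads in URI(+/D)Hep 5. It stood between 0 and 2.90 in the other 4 URI(+/D)Hep livers and at 0, 0.985 and 0 in URI(+/+)Hep livers 1 to 3, so that 1 library lay far from all others. The gene did not pass the filter on low values and was singled out after its values were seen. Of 33 genes looked at in this way within the 5 URI(+/D)Hep livers, 1 stood apart like this. How often such a value arises by chance was not tested. Markers of cholangiocytes summed to 1144 in URI(+/D)Hep 5, against 226 in the lowest URI(+/D)Hep liver and 264 to 1661 in URI(+/+)Hep livers; their part in the Ggt1 value was not tested.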

How the results depend on the processing

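Limma, edgeR and DESeq2 called 0 of the 8 genes under each of 22 alternative settings, Rhbg being absent from the fit that asked for a mean of at least 50 and without an adjusted p in DESeq2. The direction of Glul, Slc1a2, Slc38a3, Slc38a4 and Gpt2 held under all of them. Rhbg turned negative after adding the Y-linked share (-0.087), without control 1 (-0.17) and without both control 1 and URI(+/D)Hep 5 (-0.10), Glud1 without control 2 (-0.007), and Got1 turned positive with that covariate (0.03). Leaving out each library, log2 fold changes ran from 0.16 to 1.21 for Glul, 0.33 to 1.73 for Slc1a2, -0.17 to 0.56 for Rhbg, -0.01 to 0.16 for Glud1, -0.76 to -0.45 for Slc38a3, -0.31 to -0.07 for Slc38a4, -1.23 to -0.25 for Got1 and -0.96 to -0.17 for Gpt2. The cause was not tested.

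Over all genes, limma called 0 higher and 2 lower. Leaving out each library gave 0 to 10 higher and 0 to 19 lower, the largest counts without control 3. Without both control 1 and URI(+/D)Hep 5 there were 1 higher and 0 lower, and with a mean of at least 50 there was 1 higher. Quantile normalization, no trend, the Y-linked covariate and edgeR on 7 libraries gave 0 lower. DESeq2 gave 236 higher and 376 lower, and 123 and 255 on 7 libraries. With the replicate number as a block there were 0 lower; the deviations of same-numbered livers had correlations of -0.40, -0.04 and -0.27, and no control correlated best with its own number.

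In the wider glutamine and glutamate list DESeq2 called 1 higher and 3 lower, on 7 libraries 2 higher and 3 lower; edgeR, and limma with a mean of at least 50, called 1 lower, and leaving out each library gave 0 to 1 lower. DESeq2 called 1 pericentral gene higher, 4 periportal genes higher and 2 lower, and 3 periportal genes higher on 7 libraries. The 3 lists held 43, 28 and 20 tested genes in this order. Over all genes and all 8 libraries, DESeq2 called 6.67% of the genes it adjusted and edgeR 0.0219% of the genes tested.

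The correlations of Glul with the 7 genes kept their sign except for Glud1 (-0.066 after centring on group means, -0.25 without URI(+/D)Hep 1) and Slc38a3 (-0.21, -0.10 and -0.002 without control 3, URI(+/D)Hep 1 and URI(+/D)Hep 3). Without the 2 libraries farthest in Glul, r was 0.81 for Slc1a2, 0.82 for Rhbg, -0.90 for Got1 and -0.81 for Gpt2, none called after adjustment of the permutation p-values over 6 libraries. With group centring Slc38a4 was called at r = -0.58. Leaving out each library, r ran from 0.88 to 0.99 for Slc1a2, 0.71 to 0.90 for Rhbg, -0.25 to 0.85 for Glud1, -0.21 to 0.28 for Slc38a3, -0.72 to -0.58 for Slc38a4, -0.91 to -0.78 for Got1 and -0.92 to -0.86 for Gpt2.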
